A study of Mus musculus with 24 samples.

Results

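The comparison described here is infant mouse liver 24 h after gamma irradiation against infant mouse liver at 0 h. It holds the arrays whose titles place them at 1 week of age and at 24 h or 0 h, which is 8 of the 24 arrays of the series, 4 in each group, each from the liver of a different B6C3F1 mouse (a hybrid laboratory strain), with 2 males and 2 females a group. The labels and protocol give 4 Gy of gamma rays at 1 week of age, at 0.57 Gy/min, for all of these mice. The study set them beside mice of 7 weeks (adult) under the same labelled dose and beside livers taken at 48 h. The labels describe the 0 h livers as taken after exposure, while the treatment protocol also speaks of sham-irradiated mice, so whether the 0 h mice were exposed and killed at once or sham-treated is not settled here. No liver of an unirradiated mouse aged by a further day is among these arrays, so the effect of irradiation and of a day of postnatal growth cannot be told apart in any value below.

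In the newborn mouse the liver still makes blood cells, a role that passes to the bone marrow as the animal grows. Over the same weeks hepatocytes, the main cells of the liver, take on adult work in stages: disposal of ammonia as urea, breakdown of amino acids, drug metabolism, bile formation and control of body iron. Transporters of the solute carrier (Slc) and ATP-binding cassette (Abc) families carry the substrates of that work across membranes, and stellate cells and portal fibroblasts lay down the collagen and proteoglycan matrix around it.

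RNA was measured as Cy3 intensity on one-colour Agilent arrays. Levels are given as log2 of the scanner's processed signal minus the 75th percentile of that array, so a level of 0 is the array's 75th percentile and a difference of 1 is a doubling; levels of different genes come from different probes and are not compared. Across the 8 arrays the 75th percentile ranged from 209 to 385 intensity units, 44.8% to 51.9% of probes were well above background, no spot was saturated, and mice of one sex and time correlated at 0.989 to 0.993 over genes. Xist, the transcript of the inactive X chromosome, matched the labelled sex on all 8 arrays (at most -4.56 in males, at least 1.41 in females). The hepatocyte marker Alb (albumin) was high at both times, with means of 9.67 and 9.73 (n = 4 each). Of the lists that earlier work on these data had already brought out, 24 of 41 p53 targets and 19 of 31 interferon-stimulated genes were higher at 24 h, and 24 of 27 erythroid and 17 of 19 B cell markers were lower. Within slide 1 these counts were 17, 3, 14 and 13, and the interferon count was 12 with slide as a fixed term and 9 without 0 h male1 or without 24 h female1.

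Of 23115 genes tested with limma, 4672 (20.2%) passed at a Benjamini-Hochberg adjusted p under 0.05. The genes tested comprise 14951 with a gene symbol and 8164 known only by the name in the array files. Shares over all genes count both kinds, while the gene lists below hold symbols only. The share over the genes with a symbol was not counted. Of all genes tested, 3175 (13.7%) were higher at 24 h and 1497 (6.48%) were lower, and the median change over all genes was 0.06 on the log2 scale. The split depends on the scaling: 68% of the passing genes were higher here, against 57% after quantile normalization and 50.6% after scaling each array to its median, which passed 1337 genes and put the median of all genes at 0.11. Few changes were large, since 242 of the higher and 413 of the lower genes moved by 2-fold or more. In 3305 of the passing genes the 8 arrays of both groups did not overlap. These genes were chosen on the same arrays and the share over all genes was not counted, so this is no further support. Leaving out 1 array lowered the count by over 1.5 times for 4 of the 8, to 2904 without 0 h male1, 2798 without 0 h female2, 2764 without 24 h male2 and 2757 without 24 h female1.

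Males and females were not placed alike on the slides. The infant males of both times and the 24 h females lay on slide 1, and the 0 h females on slide 2, so the change in males can be read within a slide and the change in females also spans 2 slides. Every fit with slide as a term took sex as an additive term. With slide as a fixed term 2408 genes passed, against 3275 with the additive sex term and no slide. Within slide 1 (2 against 2 males, fitted on that slide's arrays alone) 1011 passed. Males alone in the fit of all 24 arrays gave the same changes, and 3823 genes passed. The slide 1 counts thus differ from those of males alone in the estimate of the spread and not in the changes. Fewer members of most lists below passed under the slide settings, and counts stand with most lists.

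**Figure D1:**
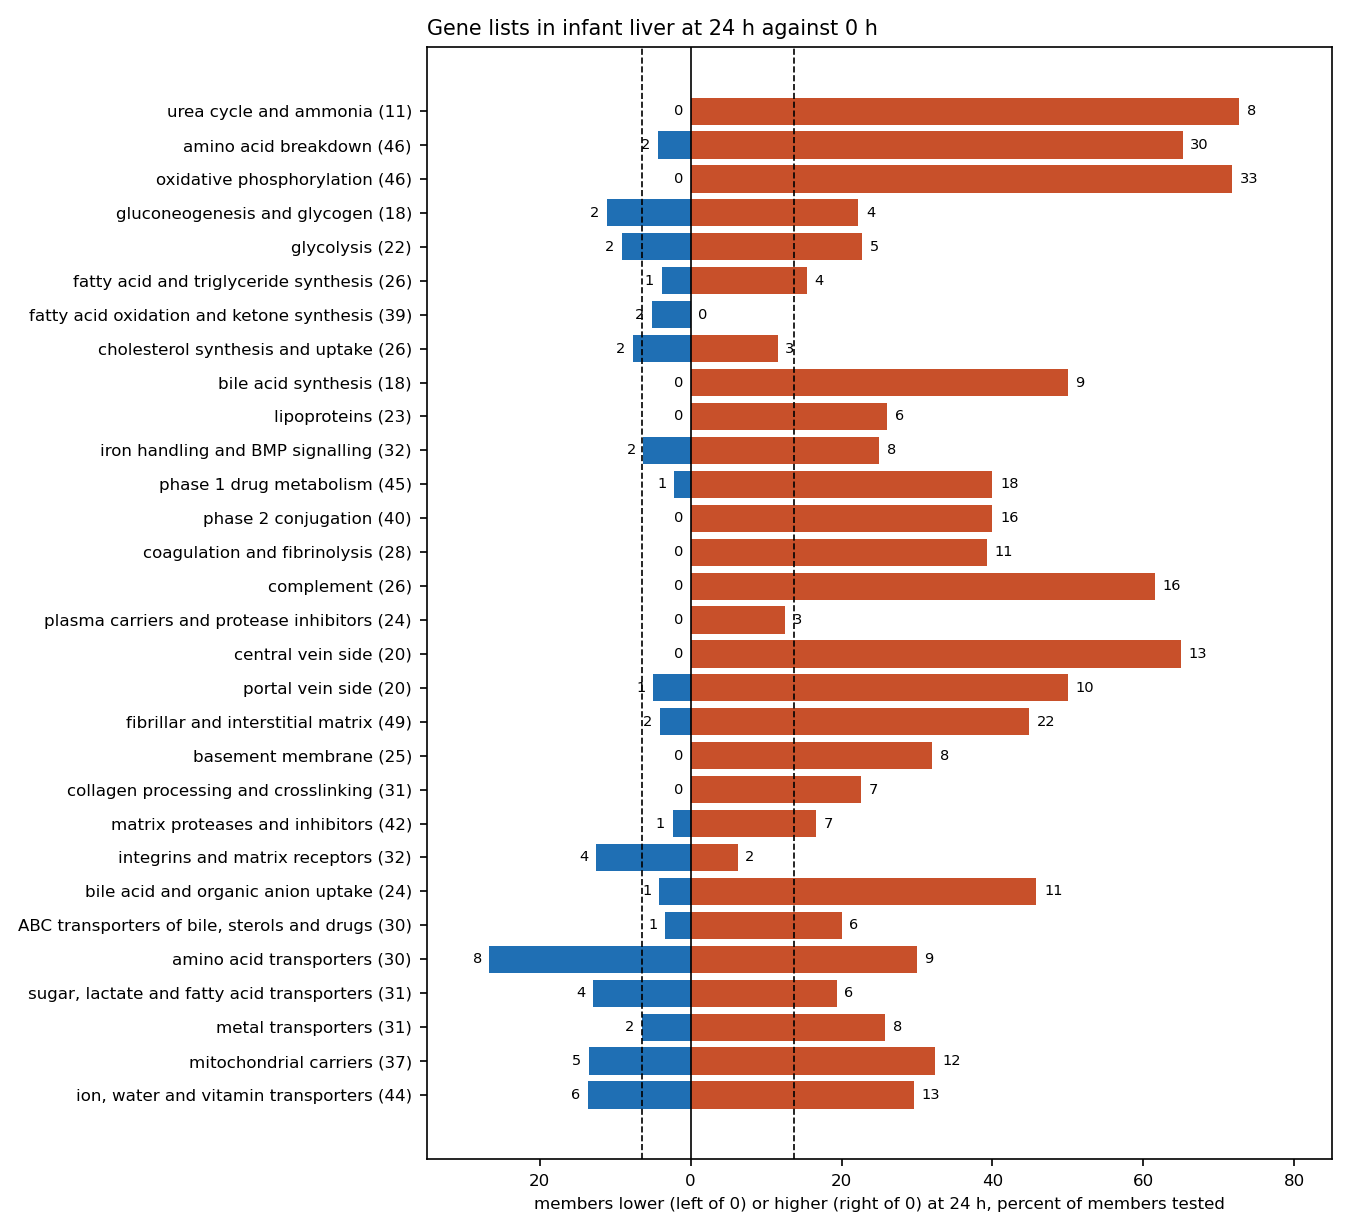
Share of the tested members of each gene list that were higher (right of 0) or lower (left of 0) in infant liver at 24 h against 0 h, in percent, with the number of members at the end of each bar and the number tested in brackets. The dashed lines mark the shares over all genes tested, with or without a symbol, 13.7% higher and 6.48% lower. The urea cycle, amino acid breakdown, oxidative phosphorylation and central vein lists reach furthest to the right, with 8 of 11, 30 of 46, 33 of 46 and 13 of 20 members.

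Hepcidin, the peptide hormone by which hepatocytes limit iron release into blood, rose most among the genes of iron handling. Its gene is induced through a bone morphogenetic protein (BMP) signal from neighbouring endothelial cells. Mice carry a pair of near-identical hepcidin genes, Hamp and Hamp2, side by side on chromosome 7. The 150 bases before each start, from RefSeq (GRCm38.p6, minus strand, 5′ to 3′), are shown because both genes were higher and the BMP-responsive element known from hepcidin promoters differs between them. Capitals mark that 6-base place, chr7:30944030-30944179 being the window of Hamp and chr7:30924182-30924331 that of Hamp2:
Hamp: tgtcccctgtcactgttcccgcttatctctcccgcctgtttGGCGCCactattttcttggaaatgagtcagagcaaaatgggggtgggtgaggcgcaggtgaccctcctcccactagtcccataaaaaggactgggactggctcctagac
Hamp2: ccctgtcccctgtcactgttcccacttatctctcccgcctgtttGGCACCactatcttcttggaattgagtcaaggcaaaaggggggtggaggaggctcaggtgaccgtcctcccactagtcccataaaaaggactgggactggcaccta
The element GGCGCC, which reads the same on both strands, begins at position -109 from the annotated start of Hamp. The matching place in Hamp2 begins at -106 and carries the substitution G4A, counted from the element's 5′ end, so that GGCGCC does not occur in the Hamp2 window. Aligned on that place without gaps, 135 of 147 bases of the windows were identical, and 7.01% of the 32851 RefSeq promoters hold GGCGCC in their 150 bases.

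Values on the 4 arrays of a group are given in the order male1, male2, female1, female2. On the 0 h arrays Hamp stood at 0.69 and 1.03 in the males and at -1.47 and -0.41 in the females. At 24 h it stood at 3.42 and 2.08 in the males and at 4.91 and 4.65 in the females. Every 24 h array was above every 0 h array, the females starting lower and ending higher than the males. The change was 3.81 (SE 0.28, adjusted p = 1.4e-06), a 14.0-fold rise. It was 1.89 in males and 5.72 in females, a difference between the sexes that did not pass (-3.83, adjusted p = 0.13). The rise in males had an adjusted p of 0.0075 in the fit of all arrays and 0.066 within slide 1. At 48 h the mean was 6.09 ± 0.90 (SD, n = 4).

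Hamp2 stood at 0.39 in both males, -2.00 and -1.23 in the females at 0 h, and at 1.93, 0.28, 3.32 and 2.67 at 24 h. The groups overlapped through the second 24 h male, and the rise rested on the females: the change was 2.67 (SE 0.46, adjusted p = 0.0015), with 4.61 in females and 0.72 in males (adjusted p = 0.48). With slide as a fixed term it was 1.36 (adjusted p = 0.24). Because the pair is near-identical in sequence, a probe for one may also read the other.

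Of 32 genes of iron handling and BMP signalling, 8 were higher and 2 lower, with a median of 0.17. With slide as a fixed term 5 rose, within slide 1 none and in females alone 3. Bmp6, the BMP ligand that drives hepcidin in the liver, stood at -5.27, -3.27, -2.91 and -3.84 at 0 h and at -2.05, -1.81, -2.54 and -2.43 at 24 h. It was well above background on 2 of 4 arrays at 0 h and on all 4 at 24 h, and rose by 1.62 (SE 0.34, adjusted p = 0.0049), with no overlap. The size of this rise depends on the processing, since it ran from 0.40 to 2.34 under the other settings. In females alone the change was 0.90 (adjusted p = 0.36). Atoh8, a transcription factor induced by BMP signals, rose by 0.69 (SE 0.12, adjusted p = 0.0015). Id1, a general target of the same signal, passed with 0.72 (adjusted p = 0.039) but not when any array other than 24 h male2 was left out (adjusted p = 0.065 to 0.14). Smad7, a further BMP target, did not pass (-0.03, adjusted p = 0.92), nor did the hepcidin regulators Hjv (0.31, adjusted p = 0.12) and Tmprss6 (0.15, adjusted p = 0.24) or the iron exporter Slc40a1 (0.09, adjusted p = 0.43).

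Tfrc, the transferrin receptor by which cells take up iron and which red cell precursors carry in quantity, fell by 2.49 (SE 0.24, adjusted p = 1.6e-05) from 2.70, 2.40, 3.07 and 2.89 to 0.13, 0.24, 0.32 and 0.43. Of 15 genes of heme synthesis and breakdown, 5 fell, among them the erythroid enzyme Alas2 (-0.83, adjusted p = 0.0073), the mitochondrial transporter Abcb10 (-0.72, adjusted p = 0.00028) and the oxidase Ppox (-0.62, adjusted p = 0.00014), and 3 rose. None rose without 0 h female2, with slide as a fixed term or within slide 1, where 3, 3 and 1 fell. Alas1, the form that hepatocytes use, did not pass (0.01, adjusted p = 0.99). The list of erythroid markers itself holds Tfrc and Alas2, so it is not separate from these falls. Of its 27 markers 24 fell, with a median of -2.92. The summed signal of the 27, in units of each array's 75th percentile, ranged from 2160 to 2820 at 0 h and from 1340 to 2120 at 24 h. At 24 h 4 of the erythroid markers were well above background on no array. Their part in these falls was not tested. In whole liver, fewer cells of a type and less RNA per cell cannot be told apart. For the rises above and below, neither can a larger share of a cell type and more RNA per cell.

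**Figure D2:**
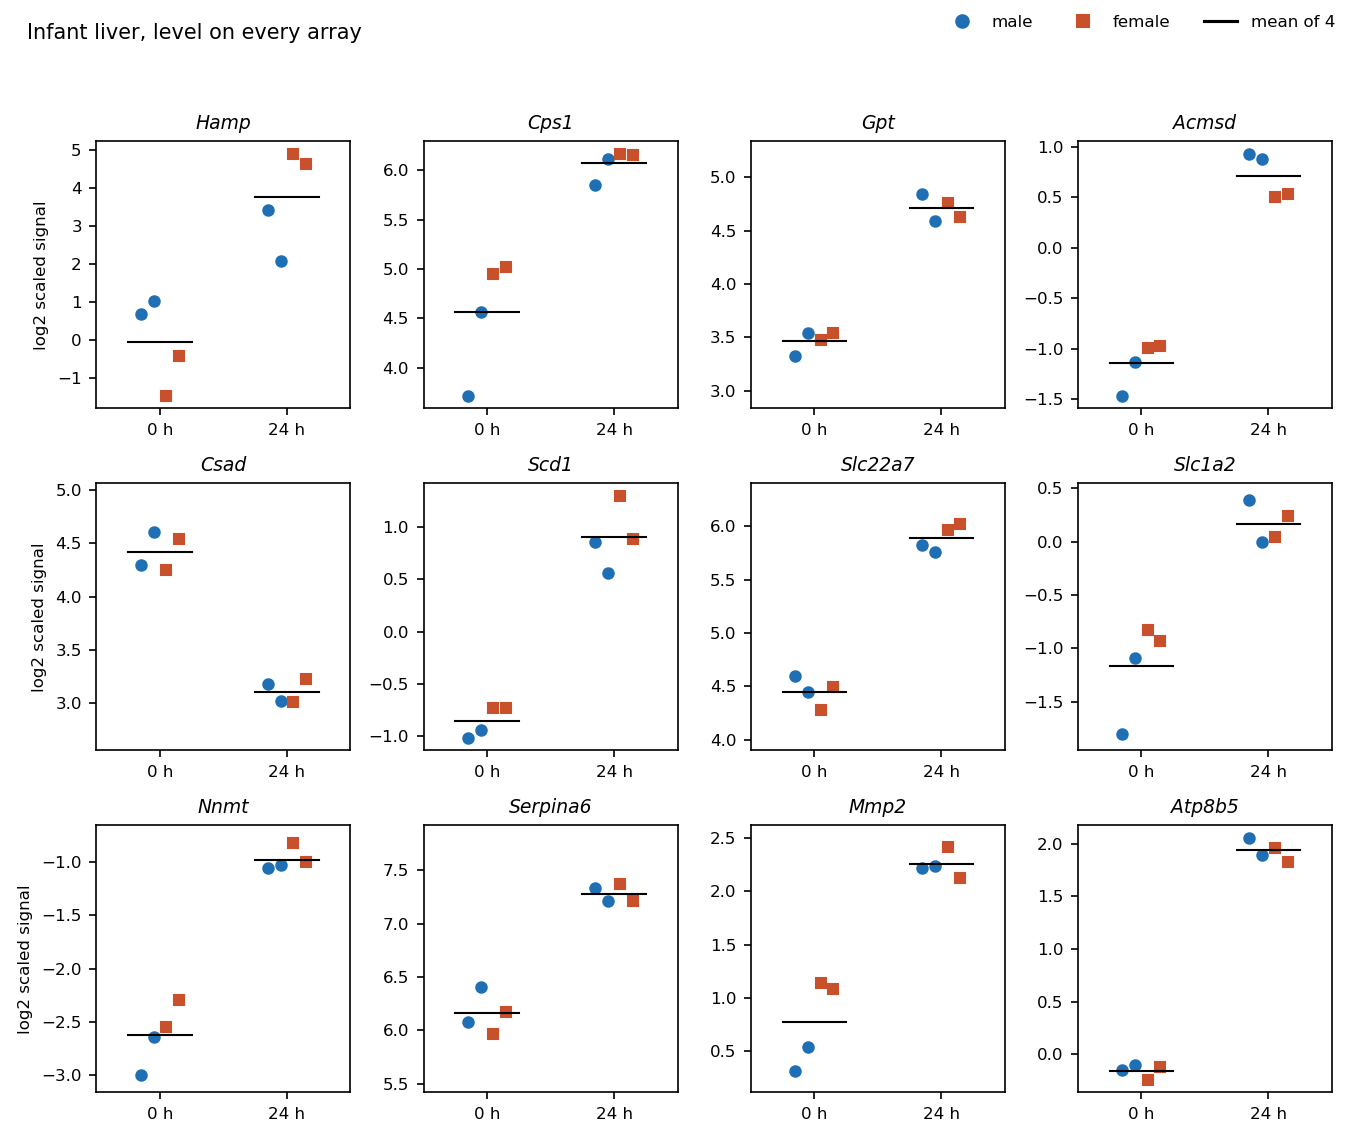
Level (log2 scaled signal) on each of the 4 arrays at 0 h and at 24 h for 12 genes of the text; circles are males, squares females and lines the mean of 4, and each panel has its own vertical axis. In all 12 panels the 0 h and 24 h arrays do not overlap; Csad is lower at 24 h and the other 11 are higher.

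Genes of urea synthesis were higher at 24 h as a group. Of 11 members, 8 rose and none fell, with a median of 0.57 against 0.06 over all genes. Cps1, the mitochondrial carbamoyl phosphate synthetase that commits ammonia to the cycle, stood at 3.71, 4.56, 4.95 and 5.02 at 0 h and at 5.85, 6.12, 6.17 and 6.16 at 24 h. The lowest 24 h array lay above the highest 0 h array, and the change was 1.52 (SE 0.16, adjusted p = 3.2e-05), or 2.86-fold. Nags, which makes the activator that Cps1 needs, rose by 1.00 (SE 0.12, adjusted p = 8.8e-05), from 1.84, 2.21, 2.36 and 1.86 to 2.85, 3.09, 3.19 and 3.15.

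The later steps rose by less. Ass1, which joins citrulline and aspartate, stood at 8.14, 8.24, 8.41 and 8.49 and then at 8.95, 9.11, 9.0 and 9.0, a change of 0.70 (SE 0.08, adjusted p = 5.9e-05). The changes of Slc25a15, the mitochondrial ornithine carrier, and of Arg1, the arginase that releases urea, were 0.64 (adjusted p = 0.00035) and 0.63 (adjusted p = 0.0052). Asl, the lyase between them, rose by 0.57 (adjusted p = 0.0012), and Gls2, the glutaminase that feeds ammonia in, by 0.55 (adjusted p = 0.0021). Glul, which takes up ammonia as glutamine, and Glud1, which releases it from glutamate, did not pass (-0.14, adjusted p = 0.16, and 0.06). Cps1, Nags, Ass1 and Slc25a15 passed under all 24 other settings tried. Median scaling left 4 of the 8, without Arg1, Asl and Gls2, females alone gave 4 and slide 1 gave 5.

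Of 46 genes of amino acid breakdown, 30 rose and 2 fell, with a median of 0.34. Acmsd, which steers tryptophan breakdown away from NAD synthesis, rose furthest of the list: it stood at -1.47, -1.13, -0.99 and -0.97 at 0 h and at 0.93, 0.88, 0.50 and 0.53 at 24 h. The males started lower and ended higher than the females without overlap between times, and the change was 1.85 (SE 0.15, adjusted p = 3.1e-06), or 3.60-fold. Gpt, the alanine aminotransferase, stood at 3.33, 3.54, 3.48 and 3.54 and then at 4.84, 4.59, 4.76 and 4.63, a rise of 1.24 (SE 0.10, adjusted p = 4.8e-06).

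Hgd, an oxidase of tyrosine breakdown, rose by 0.97 (adjusted p = 2.8e-05), Oat, the ornithine aminotransferase, by 0.95 (adjusted p = 9.3e-05), and Gnmt, which disposes of methyl groups from methionine, by 0.77 (adjusted p = 3.0e-05). Csad, which makes the bile acid conjugate taurine from cysteine, went the other way. It stood at 4.30, 4.61, 4.25 and 4.54 at 0 h and at 3.18, 3.02, 3.01 and 3.23 at 24 h, a fall of 1.31 (-1.31, SE 0.19, adjusted p = 0.00036) with about a log2 unit between the groups; with slide as a fixed term the change was -1.29 with an adjusted p of 0.11. Tat and Tdo2, hormone-responsive enzymes of tyrosine and tryptophan breakdown, did not pass (0.06, adjusted p = 0.77, and 0.09). The number of members that rose was 18 without 0 h male1 or without 24 h male2, 10 within slide 1, and 8 after median scaling and in females alone.

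All 46 measured subunits of oxidative phosphorylation, the respiratory chain and ATP synthase, had a change above 0, which was so for 13570 of the 23115 genes. Of the 46, 33 rose and none fell, with a median of 0.30, so the rises were small and shared over the complexes. Cyc1, the cytochrome of complex III, stood at 6.03, 6.22, 6.52 and 6.47 at 0 h and at 6.76, 7.04, 6.98 and 7.05 at 24 h, a change of 0.65 (SE 0.10, adjusted p = 0.00056). Ndufs8 of complex I rose by 0.54 (adjusted p = 0.0053). The ATP synthase subunit Atp5g1, at 7.54 to 7.59 in the 4 livers at 0 h and at 7.93 to 8.18 at 24 h, rose by 0.49 (SE 0.06, adjusted p = 0.00015), and Sdhb of complex II by 0.47 (adjusted p = 0.0018). The median stayed between 0.18 and 0.40 under the 24 other settings, but the number past the threshold was 19 without 0 h male1, and 2 after median scaling, within slide 1 or in females alone. In males alone it was 31. Of 63 cytosolic ribosomal protein genes, 1 was lower and none higher, with a median of -0.02.

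Genes of glucose metabolism moved in both directions. Of 18 genes of gluconeogenesis and glycogen, 4 rose and 2 fell, against 2 and none with slide as a fixed term and none in either direction within slide 1. G6pc, the phosphatase that releases glucose from the hepatocyte, stood at 7.51, 7.23, 7.40 and 7.86 at 0 h and at 6.29, 6.46, 5.96 and 6.41 at 24 h. All 24 h arrays were lower, and the change was -1.22 (SE 0.28, adjusted p = 0.0086), or 2.33-fold lower. It lost the threshold with sex as an additive term (adjusted p = 0.079) and with sex left out of the model (adjusted p = 0.096). It also lost it with slide as a fixed term (-1.07, adjusted p = 0.065) and within slide 1 (-0.99, adjusted p = 0.057).

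Ppp1r3g, a subunit that directs protein phosphatase to glycogen, stood at 1.85, 2.16, 3.56 and 4.34 and then at 1.55, 1.29, -0.62 and -0.82. The change was -2.63 (SE 0.64, adjusted p = 0.012), with -4.67 in females and -0.59 in males (adjusted p = 0.70), and -1.20 with slide as a fixed term (adjusted p = 0.42). The glycogen enzymes Gbe1, which makes branches, and Pygl, the liver phosphorylase, rose by 0.48 (adjusted p = 0.0064) and 0.38 (adjusted p = 0.0027). Pck1, which commits carbon to gluconeogenesis, did not pass (-0.23, SE 0.12, adjusted p = 0.18).

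Of 22 glycolytic genes, 5 rose and 2 fell: Pgam1, a mutase of the lower pathway, and Khk, the fructokinase, rose by 0.38 (adjusted p = 0.0031) and 0.35 (adjusted p = 0.0039), and Hk1, the hexokinase of blood and many other cells, fell (-0.55, adjusted p = 0.0032). No member of the glycogen or glycolysis lists rose past the threshold after median scaling or within slide 1, and 3 glycolytic genes rose without 0 h male1.

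Of genes of fat metabolism few passed. Scd1, the desaturase that makes oleic acid, was the member of fatty acid and triglyceride synthesis that rose most. It stood at -1.02, -0.94, -0.73 and -0.73 at 0 h and at 0.86, 0.56, 1.30 and 0.89 at 24 h, with more than a log2 unit between the groups, and the change was 1.76 (SE 0.20, adjusted p = 5.2e-05), or 3.38-fold. Of the 26 genes of that list, 4 rose and 1 fell, a share near that of all genes, and within slide 1 and after median scaling 1 rose. Dgat2, which forms triglyceride, and Acaca, the carboxylase that starts fatty acid synthesis, rose by 0.35 (adjusted p = 0.0045) and 0.33 (adjusted p = 0.0096), and neither passed after quantile normalization or median scaling. Fasn, the fatty acid synthase, did not pass (0.17, adjusted p = 0.64), and Cidec, a lipid droplet protein, fell (-0.60, adjusted p = 0.0015).

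Of 39 genes of fatty acid oxidation and ketone synthesis, none rose and 2 fell, with a median of -0.12; after quantile normalization 8 fell, 1 fell with slide as a fixed term or within slide 1, and the median was 0.00 within slide 1. Vnn1, a pantetheinase and known PPAR-alpha target, stood at 0.68, 0.99, 1.32 and 0.90 and then at 0.31, 0.32, 0.09 and 0.17, a fall with no overlap (-0.75, SE 0.12, adjusted p = 0.00069). Fgf21, the fasting hormone under the same receptor, stood at -0.37, -1.48, -0.71 and 0.32 and then at -2.86, -2.94, -2.77 and -2.29. Its change of -2.16 (SE 0.53, adjusted p = 0.012) lost the threshold without 0 h male1 or without 0 h female2 (adjusted p = 0.055 each) and with slide as a fixed term (adjusted p = 0.061). Cpt1a, the gate of mitochondrial fatty acid entry, did not change past the threshold (0.00, SE 0.08).

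Of 26 genes of cholesterol synthesis and uptake, 3 rose and 2 fell. None fell when any 1 of the 8 arrays was left out, and within slide 1 none rose and 3 fell. Sc5d, a desaturase of the last steps, rose by 0.57 (SE 0.10, adjusted p = 0.0013), the acetyl-CoA transferase Acat2 by 0.47 (adjusted p = 0.0017) and the isomerase Ebp by 0.37 (adjusted p = 0.0034). Hmgcs1, near the start of the pathway, passed with -0.85 (adjusted p = 0.032) but not when any 1 of the 8 arrays was left out (adjusted p = 0.054 to 0.091).

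Of 18 genes of bile acid synthesis, 9 rose and none fell, with a median of 0.28. Cyp7b1, an oxysterol hydroxylase of the alternative pathway, stood at -1.09, -0.74, -0.87 and -0.74 and then at 0.33, -0.12, -0.25 and -0.25, a rise of 0.79 (SE 0.13, adjusted p = 0.00089) without overlap. Amacr, a racemase of side-chain shortening, rose by 0.49 (SE 0.10, adjusted p = 0.0040). Cyp7a1, the rate-limiting enzyme of the classic pathway, stood at 1.21, 1.40, 1.01 and 0.13 and then at 1.75, 2.24, 2.55 and 2.43. The groups did not overlap, but its change of 1.31 (SE 0.40, adjusted p = 0.034) lost the threshold when any array other than 0 h female1 was left out (adjusted p = 0.050 to 0.13). The number of members that rose was 3 without 24 h male2, and none passed within slide 1 or in females alone. In males alone 8 rose.

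Of 23 lipoprotein genes, 6 rose and none fell. The count was 3 with slide as a fixed term, without 0 h male1 or without 24 h female1, and 0 within slide 1. Lrp1, the remnant receptor, stood at 4.61, 4.79, 4.69 and 4.71 and then at 5.13, 5.13, 5.07 and 5.26, a rise of 0.45 (SE 0.07, adjusted p = 0.00078). Apon, a plasma apolipoprotein, rose by 0.48 (adjusted p = 0.0083) but did not pass after median scaling. Apob and Apoa1, which carry the main lipoprotein classes, did not pass (-0.09 and -0.03).

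Enzymes of drug metabolism were also higher as a group. Of 45 genes of phase 1 metabolism, which oxidises foreign compounds, 18 rose and 1 fell (median 0.26), and of 40 genes of phase 2 conjugation 16 rose and none fell (median 0.35). Of the 79 cytochrome P450 genes tested, 27 rose and 2 fell, with 17 rising without 0 h female2 or any of 24 h male2, female1 and female2, and 5 within slide 1. Cyp2c55 and Cyp2c38, members of a P450 subfamily of close copies, rose by 1.49 (SE 0.31, adjusted p = 0.0047) and 1.33 (SE 0.23, adjusted p = 0.0016), and their probes may read related copies. Cyp1a2, which metabolises caffeine, rose by 0.74 (SE 0.14, adjusted p = 0.0022), from 2.98, 2.86, 3.26 and 3.02 to 3.89, 3.81, 3.68 and 3.70.

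Cyp1b1, a P450 of mesenchymal cells, was not well above background on any 0 h array and was so on all 4 at 24 h. In the main processing this makes it at least 1.86-fold higher. Its fitted change had an adjusted p of 0.0016 and ran from 0.40 to 2.39 under the other settings. It did not pass with slide as a fixed term (adjusted p = 0.074). Ephx1, the microsomal epoxide hydrolase and also a p53 target, stood at 6.05, 6.42, 6.48 and 6.43 and then at 7.51, 7.24, 7.20 and 7.20, a rise of 0.94 (SE 0.10, adjusted p = 3.7e-05). The alcohol dehydrogenase Adh4 rose by 0.74 (SE 0.12, adjusted p = 0.0013).

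Among the conjugating enzymes Nnmt, which methylates nicotinamide, rose most. It stood at -3.00, -2.64, -2.55 and -2.29 at 0 h and at -1.06, -1.03, -0.82 and -1.0 at 24 h, and the change was 1.64 (SE 0.28, adjusted p = 0.0015), or 3.12-fold, with over a log2 unit between the groups. Glyat, which joins glycine to aromatic acids, rose by 0.88 (SE 0.12, adjusted p = 0.00026), and Ugt2a3, a glucuronosyltransferase, by 0.67 (SE 0.14, adjusted p = 0.0040). Cyp3a11 and Cyp2e1, abundant P450 enzymes of the adult liver, did not pass (0.24 and 0.09). Within slide 1, 3 phase 1 and 2 phase 2 genes rose, with slide as a fixed term 13 and 10, after median scaling 9 and 3, and in females alone 5 and 3; without 0 h male1 or without 24 h female1 9 phase 2 genes rose.

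The proteins that the liver secretes did not move alike. Of 26 complement genes 16 rose and of 28 genes of coagulation and fibrinolysis 11 rose, with none lower and medians of 0.27 and 0.28. Of 24 plasma carriers and protease inhibitors, 3 rose and none fell, with a median of 0.06, the same as over all genes. Pros1, the cofactor protein S, stood at 1.73, 1.97, 1.94 and 1.94 and then at 2.69, 2.56, 2.74 and 2.57, a rise of 0.75 (SE 0.09, adjusted p = 8.9e-05) in which the groups were set apart by more than their own ranges. The clotting factors F7 and F9 rose by 0.50 (SE 0.06, adjusted p = 0.00013) and 0.46 (SE 0.07, adjusted p = 0.00048).

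C4b, which acts early in complement, rose by 0.46 (SE 0.07, adjusted p = 0.00075), from 6.84, 6.76, 6.85 and 6.73 to 7.39, 7.26, 7.19 and 7.19, and C8b of the membrane attack complex by 0.59 (adjusted p = 0.0081). C4bp, an inhibitor of the same cascade, rose by 0.56 (adjusted p = 0.0070). Serpina6, the corticosteroid-binding globulin of plasma, stood at 6.08, 6.41, 5.97 and 6.17 and then at 7.33, 7.21, 7.37 and 7.21, a rise of 1.12 (SE 0.12, adjusted p = 3.1e-05), or 2.18-fold. Among the carriers that did not pass, the change was 0.06 for Alb, 0.03 for Ttr, which carries thyroid hormone, and -0.07 for Afp, the fetal albumin. The coagulation count was 6 without 24 h female2, 3 within slide 1 and after median scaling, and 2 in females alone. The complement count was 7 without 0 h male1 or without 24 h male2, 9 with slide as a fixed term, 2 after median scaling and in females alone, and 0 within slide 1. In males alone it was 11.

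Of 24 acute phase genes, those that inflammation induces in hepatocytes, 5 rose, none when slide was a fixed term, and 3 within slide 1 or without 0 h female1, 24 h male1, 24 h male2 or 24 h female1. They include Saa2, a serum amyloid gene with a near-identical neighbour, by 1.67 (SE 0.38, adjusted p = 0.0082). It did not pass with sex as an additive term (1.67, adjusted p = 0.084), with slide as a fixed term beside it (1.34, adjusted p = 0.091) or with sex left out (adjusted p = 0.18). Of 29 hepatocyte transcription factors 5 were higher and 1 lower, a share near that of all genes, and none rose with slide as a fixed term. Foxa1 and Foxa2, pioneer factors of liver identity, rose by 0.78 each (SE 0.17 and 0.15, adjusted p = 0.0053 and 0.0030), and neither passed with slide as a fixed term or with sex left out.

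Of 20 genes of the fetal liver, 1 rose and 3 fell, with 2 falling when slide was a fixed term or within slide 1. Cd24a, which marks hepatic progenitors and is also carried by red cell precursors, fell from 4.52, 3.76, 4.41 and 3.88 to 0.95, 1.41, 1.04 and 1.18 (-3.00, SE 0.21, adjusted p = 9.6e-07), beside the fall of the erythroid markers, whose part in it was not tested. Igf2, the fetal growth factor, and H19, its imprinted neighbour, did not pass (-0.24 and 0.21). Of 20 genes of growth hormone and IGF signalling 2 rose and none fell, a share below that of all genes, and none rose within slide 1 or in females alone. Igf1, the growth factor that takes over after birth, rose by 0.40 (SE 0.07, adjusted p = 0.0019) and its binding protein gene Igfbp4 by 0.55 (SE 0.08, adjusted p = 0.00048).

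Hepatocytes divide their work along the lobule, from the portal vein, where blood enters, to the central vein. Both sides were represented among the rises: of 20 genes of the central vein side 13 rose and none fell (median 0.47), and of 20 genes of the portal side 10 rose and 1 fell (median 0.32). Slc1a2, the glutamate transporter of hepatocytes next to the central vein, stood at -1.80, -1.09, -0.83 and -0.93 at 0 h and at 0.39, 0.00, 0.04 and 0.24 at 24 h. The groups did not overlap, with the first male lowest at 0 h and highest at 24 h, and the change was 1.33 (SE 0.14, adjusted p = 2.7e-05), or 2.51-fold. Rnf43, a Wnt target and feedback inhibitor, rose by 0.75 (SE 0.15, adjusted p = 0.0031) but not within slide 1 or with slide as a fixed term. The central markers Glul, Cyp2e1 and Lgr5 did not pass (-0.14, 0.09 and 0.22). On the portal side Cyp2f2, a P450 of periportal cells, rose by 0.67 (SE 0.13, adjusted p = 0.0025), beside Cps1 and Gls2 above. The central count was 7 without 24 h female1 or with slide as a fixed term, 5 within slide 1 and in females alone and 6 after median scaling. The portal count was 3 within slide 1, 4 after median scaling and 4 in females alone.

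Genes of the interstitial matrix were higher at 24 h in part, although many of these calls were lost under the slide settings. Of 49 genes of the fibrillar and interstitial matrix, 22 rose and 2 fell, with a median of 0.39. The median changed little under the slide settings while the calls did: with slide as a fixed term the median was 0.36 and 1 member rose past the threshold, within slide 1 the median was 0.42 and 3 rose, and without 24 h male1 or 24 h female1 6 rose. In females alone 2 rose and in males alone 13. Of 31 genes of collagen processing 7 rose and none fell, with 1 rising with slide as a fixed term, none within slide 1 and 2 without 24 h female1. Of 42 matrix proteases and inhibitors 7 rose and 1 fell, a share near that of all genes, with 3 rising with slide as a fixed term or without 0 h male1 and 2 within slide 1. The call of Mmp2, the gelatinase that cuts denatured collagen, held under all 24 other settings. It stood at 0.32, 0.54, 1.14 and 1.08 at 0 h and at 2.22, 2.24, 2.41 and 2.12 at 24 h, a gap of about a log2 unit, and rose by 1.48 (SE 0.18, adjusted p = 9.3e-05), or 2.78-fold. Serpine2, an inhibitor of matrix-bound proteases, stood at -2.40, -3.21, -2.74 and -2.94 and then at -1.47, -1.65, -1.51 and -1.84, a rise of 1.21 (SE 0.19, adjusted p = 0.00088) that lost the threshold only within slide 1.

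Among structural proteins Mgp, the matrix Gla protein, stood at 1.60, 0.89, 1.36 and 1.85 and then at 2.96, 2.49, 2.94 and 2.49, a rise of 1.29 (SE 0.25, adjusted p = 0.0030). Ogn, a small proteoglycan of collagen fibrils, rose by 1.15 (SE 0.22, adjusted p = 0.0028), and the related Fmod by 1.48 (SE 0.35, adjusted p = 0.0097), with Fmod well above background on 3 of 4 arrays at 0 h. None of these 3 passed with slide as a fixed term, where their changes were 1.19, 0.98 and 1.64. Mfap5, a microfibril protein, had a change of 2.87 (adjusted p = 0.027), but 0 h female1 stood at -6.33 against -2.59 to -1.40 on the other 0 h arrays, and the call was lost without that array, 0 h male1, 24 h male1, 24 h male2 or 24 h female1 (adjusted p = 0.059 to 0.10).

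Col1a1 and Col3a1, the chains of the main fibrillar collagens, stood at 3.90, 4.38, 4.17 and 4.35 and at 5.44, 5.61, 5.53 and 5.63 at 0 h. At 24 h Col1a1 stood at 5.22, 4.69, 5.41 and 5.01, and Col3a1 at 6.29, 5.91, 6.35 and 5.91. All 24 h arrays were above the 0 h arrays for both genes, with rises of 0.89 (SE 0.24) and 0.56 (SE 0.15) and an adjusted p of 0.018 each. Both lost the threshold without 0 h male1, 0 h female1, 24 h male1 or 24 h female1 (adjusted p = 0.052 to 0.077 and 0.052 to 0.086), and with slide as a fixed term (0.68, adjusted p = 0.17, for Col1a1). Loxl1, which crosslinks elastin, rose by 0.79 (adjusted p = 0.0082), also without passing with slide as a fixed term. Timp1, an inhibitor of matrix metalloproteinases that fibrosis induces, reached an adjusted p of 0.050 (0.74, SE 0.25) and lost it when any 1 array was left out (0.068 to 0.14). Fn1, fibronectin, and Col4a1, a chain of basement membrane collagen, did not pass (0.04 and 0.14).

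**Figure D3:**
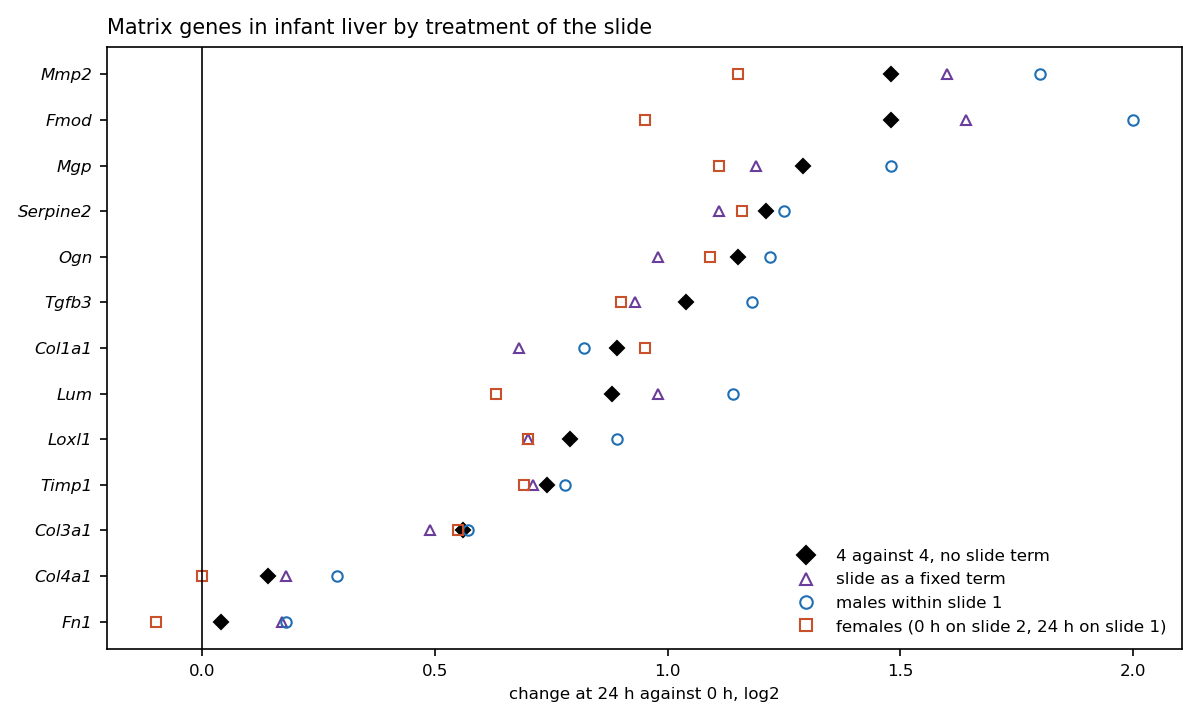
Change at 24 h against 0 h (log2) of 13 matrix genes under 4 treatments of the slide: all 8 arrays with no slide term (diamonds), slide as a fixed term (triangles), the 2 against 2 males within slide 1 (circles) and the females, whose 0 h arrays lay on slide 2 (squares). From Mmp2 to Col3a1 all 4 points of each gene lie right of 0, while Col4a1 and Fn1 lie close to 0; for Mmp2 the 4 values are 1.48, 1.60, 1.80 and 1.15.

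Of 25 basement membrane genes 8 rose and none fell, with 3 rising without 0 h male1, with slide as a fixed term or within slide 1, 2 after median scaling and none in females alone. Of 32 integrins and matrix receptors 2 rose and 4 fell. Itgb4, an integrin chain of epithelial cells, rose by 0.89 (SE 0.19, adjusted p = 0.0052) but did not pass with slide as a fixed term. Lamc3, a laminin chain, was well above background on no 0 h array and on all 4 at 24 h. In the main processing this makes it at least 1.54-fold higher. Its fitted change had an adjusted p of 0.0059 and ran from 0.28 to 1.70 under the other settings. The integrin chains that fell are those of white blood cells: Itga4 (-1.48, SE 0.29, adjusted p = 0.0032) and its partner Itgb7 (-1.28, SE 0.22, adjusted p = 0.0016). Markers of B cells moved with them, their 19-gene sum being 33.6 to 51.4 at 0 h and 4.91 to 5.67 at 24 h, with 6 markers well above background on no 24 h array; their part was not tested. Of 28 TGF-beta family genes 5 rose and 4 fell, with 1 each way when slide was a fixed term or within slide 1 and 1 rising without 0 h female2 or without 24 h female1. Tgfb3, a ligand made by stellate cells, rose by 1.04 (SE 0.18, adjusted p = 0.0015), and Inhbe, an activin chain made by hepatocytes, fell (-1.07, SE 0.25, adjusted p = 0.0087).

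Markers of the cells that make matrix were measured on the same arrays. Lum, Dpt and Ecm1 are on that marker list and also on the interstitial matrix list, so the lists are not separate. Of 23 stellate cell and fibroblast markers 6 rose and none fell, and their summed signal was 166 to 207 at 0 h and 216 to 242 at 24 h, with all 23 well above background throughout. The number that rose was 3 without 0 h male1, 2 with slide as a fixed term or within slide 1, and 0 in females alone. Rgs5, a gene of pericytes, stood at 1.09, 0.98, 1.65 and 1.36 and then at 2.41, 2.28, 2.28 and 2.25, a rise of 1.04 (SE 0.16, adjusted p = 0.00070). Lum, the proteoglycan lumican, rose by 0.88 (SE 0.20, adjusted p = 0.0067). Pdgfrb and Vim, which stellate cells express at rest, did not pass (0.04 and -0.01). The part of the stellate markers in the matrix rises was not tested.

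Of 12 bile duct markers 4 rose, 8 did not pass and none fell, with overlapping sums of 40.0 to 55.2 at 0 h and 53.3 to 65.3 at 24 h. Of these, 1 rose without 0 h female2, without 24 h male1 or with slide as a fixed term. Krt19, the keratin of bile duct cells, stood at -0.33, -0.60, -0.15 and -0.17 and then at 1.64, 1.09, 1.15 and 1.13, a rise of 1.57 (SE 0.19, adjusted p = 0.00011), or 2.97-fold, that held under all 24 other settings. Dmbt1, a secreted glycoprotein of epithelia, had the largest fitted rise among genes outside the blood and p53 lists without overlap between times in either sex. It stood at -5.29, -2.62, -6.13 and 0.79 at 0 h, where 2 of 4 arrays were well above background, and at 3.45, 2.12, 2.11 and 2.5 at 24 h. The change of 5.86 (SE 1.54, adjusted p = 0.017) was lost without 0 h male1, 0 h female1 or 24 h male1 (adjusted p = 0.052 to 0.070). The epithelial genes Wfdc18 and Mal rose by 2.13 (SE 0.32, adjusted p = 0.00051) and 1.91 (SE 0.31, adjusted p = 0.00087), with 2 and 3 of 4 arrays measured at 0 h. Muscle and fat markers, which would show adjoining tissue in a sample, did not pass in any of 10 genes tested, but their sum ran from 49.4 to 89.1 at 0 h and from 67.1 to 199 at 24 h. Of 8 markers of pancreatic acinar cells 3 rose and none fell. With slide as a fixed term 2 of them rose, within slide 1 or without 24 h male2 1, and in females alone none. Their sums overlapped, at 17.5 to 24.4 at 0 h and 23.9 to 26.1 at 24 h. The part of ducts, acinar cells or adjoining tissue in these rises was not tested.

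Transporters moved in both directions. Of 280 solute carrier genes 69 rose and 27 fell, with a median of 0.15, and of 43 Abc genes 10 rose and 3 fell. Without 24 h male2 39 solute carriers rose, with slide as a fixed term 42, within slide 1 19, after median scaling 24 and in females alone 17. In males alone 59 rose. Of the Abc genes 5 rose with slide as a fixed term or without 24 h female2, and 2 within slide 1 or after median scaling. Uptake of bile acids and organic anions leaned to rises, with 11 of 24 genes higher and 1 lower (median 0.38), whereas amino acid transporters were split, with 9 of 30 higher and 8 lower (median -0.07). With slide as a fixed term the uptake count was 6 and the amino acid counts 7 and 6, and within slide 1 they were 2, 5 and 5; 6 amino acid transporters rose without 0 h female1, 24 h male2, 24 h female1 or 24 h female2.

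Slc22a7, the hepatocyte transporter of organic anions and nucleotides, stood at 4.60, 4.45, 4.28 and 4.49 at 0 h and at 5.82, 5.76, 5.96 and 6.02 at 24 h. The groups were more than a log2 unit apart, and the change was 1.44 (SE 0.16, adjusted p = 5.0e-05), or 2.71-fold, and passed in all settings tried. Slco1a4, which takes up bile acids and digoxin, stood at 0.38, 0.22, 0.81 and 0.83 and then at 1.98, 1.55, 1.58 and 1.31, a rise of 1.04 (SE 0.20, adjusted p = 0.0033). Slc22a27 and Slc22a29, neighbours in a mouse cluster of close copies whose probes may read one another, rose by 1.09 (SE 0.20, adjusted p = 0.0022) and 1.07 (SE 0.22, adjusted p = 0.0045), and neither passed with slide as a fixed term.

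Slc22a4, the ergothioneine transporter that red cell precursors also carry, was the gene of that list that fell: it stood at -1.35, -1.85, -1.47 and -2.15 and then at -2.99, -3.12, -3.59 and -3.78 (-1.66, SE 0.18, adjusted p = 3.5e-05). Under the other settings its change was as small as -0.61. Slc10a1, the main importer of bile salts from blood, did not pass (-0.14, SE 0.14, adjusted p = 0.51). At the bile-facing membrane Abcb11, the bile salt export pump, rose by 0.46 (SE 0.07, adjusted p = 0.00085), from 5.80, 5.88, 5.97 and 6.01 to 6.48, 6.45, 6.28 and 6.31. Abcg8, a subunit of the sterol exporter, rose by 0.57 (SE 0.12, adjusted p = 0.0047), and neither gene passed after median scaling.

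Among Abc genes outside bile formation, Abca3, a phospholipid transporter, rose by 0.45 (SE 0.06, adjusted p = 0.00033). Abca7, a lipid transporter of blood and other cells, fell from 3.09, 2.55, 2.38 and 2.55 to 1.89, 1.77, 1.71 and 1.79 (-0.85, SE 0.10, adjusted p = 8.9e-05). Abcg4, a sterol transporter, fell further, from 0.36, -0.45, 0.01 and -0.68 to -4.25, -4.28, -3.57 and -3.84, where 2 of 4 arrays were well above background (-3.80, SE 0.44, adjusted p = 6.9e-05). Atp8b5, a phospholipid-flipping ATPase of another family, rose in every setting: it stood at -0.15, -0.10, -0.25 and -0.12 and then at 2.06, 1.89, 1.96 and 1.83. The 8 livers split into tight groups, and the change was 2.09 (SE 0.16, adjusted p = 2.1e-06), or 4.27-fold.

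Slc3a1, the heavy chain of a cystine transporter, stood at -1.78, -1.11, -0.97 and -0.97 and then at 0.06, -0.15, 0.59 and 0.41, a rise of 1.43 (SE 0.27, adjusted p = 0.0028), beside Slc1a2 above. Slc38a5, a glutamine transporter of red cell precursors, fell from 1.92, 0.91, 1.72 and 1.33 to -3.18, -1.45, -1.87 and -1.26 (-3.41, SE 0.35, adjusted p = 2.9e-05), or 10.6-fold. The glutamine carrier Slc1a5 fell from 1.41, 0.93, 1.25 and 0.87 to -1.14, -0.99, -0.95 and -1.06 (-2.15, SE 0.18, adjusted p = 4.2e-06).

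Slc6a9, a glycine transporter that supplies heme synthesis, fell from 3.12, 2.41, 2.96 and 2.52 to 0.96, 0.96, 1.41 and 1.22 (-1.62, SE 0.14, adjusted p = 4.5e-06). Slc38a1, a glutamine carrier, fell between narrow groups, at 1.60, 1.48, 1.5 and 1.55 at 0 h and 0.38, 0.37, 0.35 and 0.39 at 24 h (-1.16, SE 0.06, adjusted p = 9.6e-08). Slc7a5, a carrier of large neutral amino acids, fell by 1.04 (SE 0.17, adjusted p = 0.00099). These 5 falls held under all 24 other settings, and the erythroid and B cell markers given above fell with them; the part of those cells was not tested.

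Of 31 sugar, lactate and fatty acid transporters 6 rose and 4 fell, with 2 rising without 0 h male1, 24 h male2 or 24 h female1 and 1 within slide 1. Slc2a5, the fructose transporter, rose by 0.80 (SE 0.13, adjusted p = 0.00078), while Slc2a2, the main glucose transporter of hepatocytes, did not pass (0.29, SE 0.11, adjusted p = 0.082). Of 31 metal transporters 8 rose and 2 fell, with 5 rising with slide as a fixed term or without 0 h male1, 0 h female2, 24 h female1 or 24 h female2, and 2 within slide 1: Slc30a1, a zinc exporter, rose by 0.57 (SE 0.11, adjusted p = 0.0037), and Slc30a10, a manganese exporter, fell from -0.03, -0.17, 0.18 and 0.11 to -1.02, -0.67, -0.73 and -0.56 (-0.77, SE 0.10, adjusted p = 0.00023). Slc25a37, mitoferrin, which brings iron to the mitochondria of red cell precursors, fell by 1.98 (SE 0.18, adjusted p = 8.1e-06).

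Of 37 mitochondrial carriers 12 rose and 5 fell, with 6 rising without 24 h male2 and 3 within slide 1, and none falling with slide as a fixed term. Slc25a10, the dicarboxylate carrier, rose by 0.58 (SE 0.10, adjusted p = 0.0019), although 0 h female1 at 1.43 lay above 24 h male1 at 1.29. Ucp2, an uncoupling protein of white cells and Kupffer cells, fell (-0.68, SE 0.16, adjusted p = 0.0085) but not with slide as a fixed term. Macrophage and Kupffer cell markers did not fall with it: of 25, 8 rose and none fell, with sums of 363 to 445 at 0 h and 481 to 521 at 24 h. With slide as a fixed term 2 of these markers rose, and 1 without 0 h male1 or within slide 1. The part of these cells was not tested. Of 44 ion, water and vitamin transporters 13 rose and 6 fell, with 5 rising without 0 h male1 or without 24 h male2, 6 when slide was a fixed term and 1 within slide 1. Slc23a1, the vitamin C importer, stood at 0.44, 0.44, 0.57 and 0.29 and then at 0.96, 1.1, 1.12 and 1.04, a rise of 0.62 (SE 0.10, adjusted p = 0.00086) that passed in all settings tried. Slc46a3, a lysosomal carrier, rose by 0.53 (SE 0.09, adjusted p = 0.0012), and Slc28a2, a purine nucleoside importer, fell from -1.30, -1.73, -1.54 and -1.59 to -3.00, -3.33, -2.94 and -2.79 (-1.47, SE 0.26, adjusted p = 0.0016). The Slc28a2 change was as small as -0.62 under the other settings.

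**Figure D4:**
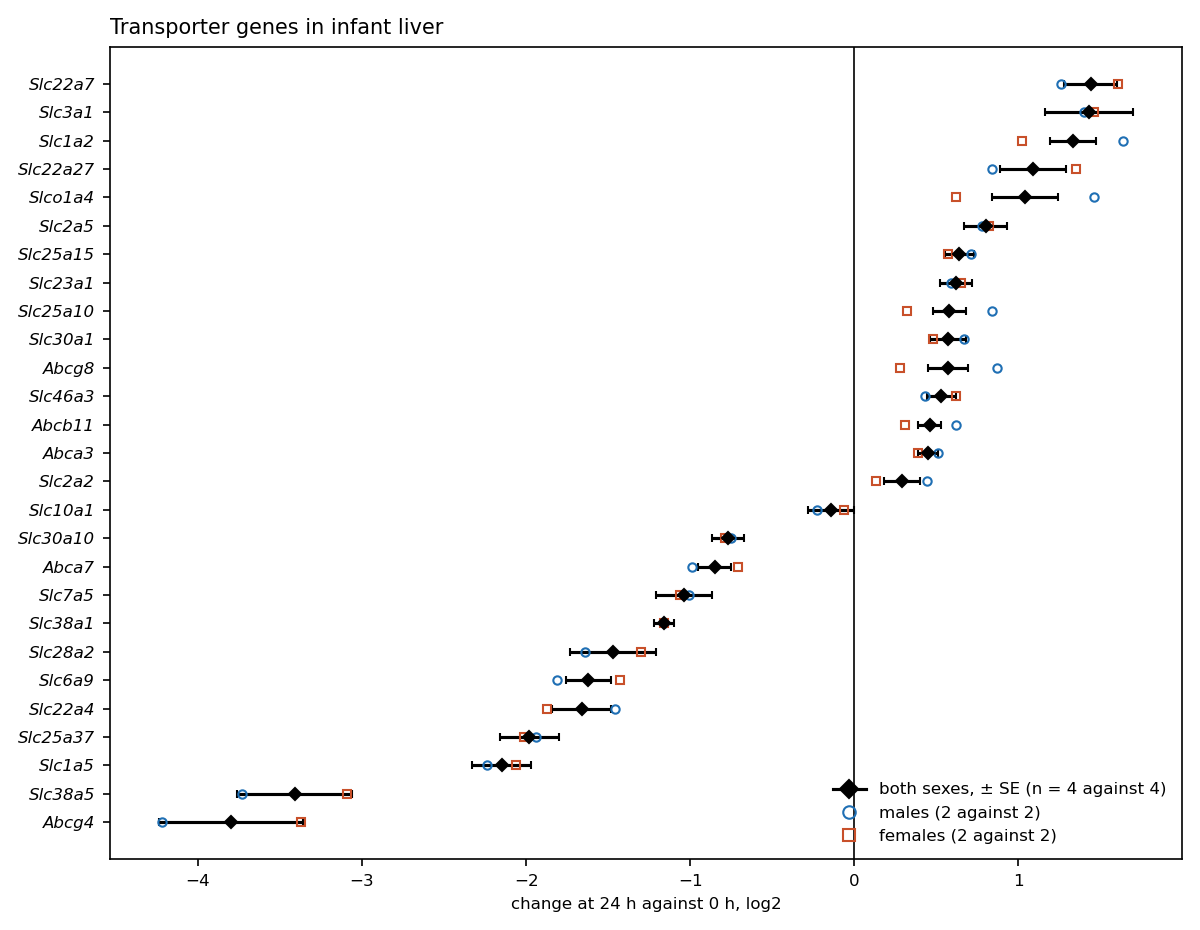
Change at 24 h against 0 h (log2) of 27 transporter genes, in order of size; diamonds with bars are the estimate over both sexes ± SE (n = 4 against 4), circles the males and squares the females (2 against 2 each). Slc22a7 at 1.44 and Abcg4 at -3.80 are the ends of the order, and Slc2a2 and Slc10a1, near 0, did not pass.

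Stress and clock genes were examined as further groups. Of 23 NRF2 targets 9 rose and 2 fell, of 19 heat shock genes 5 rose, of 24 genes of protein folding in the endoplasmic reticulum 7 rose and of 31 proteasome genes 13 rose, with none lower in the last 3. The counts of rises were lower with 1 array left out, at 4 for NRF2 targets (0 h male1 or 24 h female2), 2 for heat shock (0 h female2, 24 h male2 or 24 h female1), 3 for folding (any array but the 0 h males) and 7 for the proteasome (24 h male2 or 24 h female1). With slide as a fixed term they were 4, 3, 2 and 9, and within slide 1 3, 1, 1 and 0. In males alone they were 6, 3, 2 and 11. Nfe2l2, the gene of NRF2 itself, rose by 0.57 (SE 0.10, adjusted p = 0.0018), its target Cbr1, a carbonyl reductase, by 0.66 (SE 0.12, adjusted p = 0.0021), the small heat shock protein Hspb8 by 0.82 (SE 0.14, adjusted p = 0.0014) and the proteasome subunit Psma3 by 0.31 (SE 0.06, adjusted p = 0.0037). After median scaling no proteasome gene passed.

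Ppp1r15a, which ends the stress block on translation, fell from 3.52, 2.99, 3.53 and 3.23 to 1.73, 1.96, 1.68 and 1.92 (-1.5, SE 0.12, adjusted p = 3.1e-06), with about a log2 unit between the groups. Of 18 clock genes 4 rose and 1 fell, with 2 rising within slide 1: the clock output factors Dbp and Tef rose by 1.28 (SE 0.27, adjusted p = 0.0051) and 0.64 (SE 0.10, adjusted p = 0.00066), and the repressor Nr1d2 by 1.02 (SE 0.17, adjusted p = 0.0014). Dbp and Tef lost the threshold with sex left out (adjusted p = 0.40 and 0.25). The hour of day at which the livers were taken is not given in the sources used here, and its part was not tested.

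Outside the named blood and p53 lists, the largest falls without overlap between times in either sex were also of genes known from blood cells. Btnl10, a butyrophilin, was well above background on all 4 arrays at 0 h and on none at 24 h. In the main processing this makes it at least 12.5-fold lower (adjusted p = 3.4e-08 for the fitted change). Il7r, the interleukin-7 receptor chain of lymphocyte precursors, was at least 5.93-fold lower on the same terms (adjusted p = 4.1e-07), and Irf4, a factor of B cell differentiation, at least 9.15-fold (adjusted p = 5.5e-07). Mcpt8, a basophil protease, was at least 11.4-fold lower (adjusted p = 1.1e-06). Under the other settings the fitted log2 changes of Btnl10, Il7r, Irf4 and Mcpt8 were as small as -1.80, -1.33, -1.43 and -1.57. These bounds therefore hold for the main processing only. Myb, a factor of blood progenitors, fell from 1.62, 0.63, 0.97 and 1.19 to -3.47, -3.11, -3.39 and -2.89, where 3 of 4 arrays were well above background (-4.31, SE 0.22, adjusted p = 5.4e-08).

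The same comparison was made in adult mice, labelled with the same dose at 7 weeks. All 4 adult 0 h arrays lay on slide 3 with the 24 h females, and the 24 h males lay on slide 2, so the adult male change also spans slides. The 24 h change differed between the ages in 3346 of 23115 genes (14.5%), with the adult change the higher in 1340 and the lower in 2006; after median scaling 744 genes passed and the adult change was the higher in 57.4% of them, against 40% here. The count was 2225 without 0 h female2, 2202 without 24 h male2 and 2187 without 24 h female1. With slide as a fixed term 2740 genes passed, 709 with the higher and 2031 with the lower change in adults (25.9% higher). Of 11 urea cycle genes 7 had a lower change in adults and none a higher one, of 46 amino acid breakdown genes 17 and 2, of 46 oxidative phosphorylation genes 12 and none, and of 49 interstitial matrix genes 14 and 2. Of 39 fatty acid oxidation genes, 5 had a higher change in adults and none a lower one, their median being 0.14 in adults and -0.12 in infants. Other lists had more members on that side. The adult change was the higher in 30 of 63 cytosolic ribosomal protein genes, with medians of 0.27 in adults and -0.02 in infants. It was also the higher in 9 of 31 interferon-stimulated genes (medians 1.43 and 0.61), 19 of 27 erythroid and 17 of 19 B cell markers. In these 4 lists it was the lower in none.

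Acmsd changed by -0.48 in adults against 1.85 in infants, a difference of -2.33 (SE 0.21, 95% interval -2.78 to -1.88, adjusted p = 3.1e-05). The difference was -1.44 for Cps1 (adjusted p = 0.0014), which stood at 6.28 ± 0.20 (SD, n = 4) in adults at 0 h against 4.56 ± 0.60 in infants. It was -1.82 for Scd1 (adjusted p = 0.0012), with 6.74 ± 0.31 in adults at 0 h against -0.85 ± 0.15 in infants, and -1.04 for Gpt (adjusted p = 0.00078). Nags and Ass1 differed by -0.87 and -0.60 (adjusted p = 0.0049 and 0.0040), neither passing after median scaling. Serpina6 differed by -1.09 (adjusted p = 0.0012) and Slc22a7 by -1.39 (adjusted p = 0.0017), but not with sex left out, and Mgp by -1.53 (adjusted p = 0.012).

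Csad changed by 0.52 in adults against -1.31 in infants, a difference of 1.83 (adjusted p = 0.00087) that lost the threshold with slide as a fixed term (adjusted p = 0.090). Hamp changed by 1.04 in adults, a difference of -2.77 (SE 0.40, adjusted p = 0.00087) that did not pass with slide as a fixed term (adjusted p = 0.21) or as a random block (adjusted p = 0.098). Ogn and Abcb11 differed by -1.54 and -0.44 (adjusted p = 0.0064 and 0.014), and neither passed with slide as a fixed term (adjusted p = 0.13 and 0.058). Slc6a9 and Slc38a1 differed by 2.23 (adjusted p = 2.3e-05) and 1.01 (adjusted p = 2.9e-05). Myb was well above background on no adult 0 h array, so its difference of 5.19 (adjusted p = 6.9e-07) is set by the infant fall.

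For other genes no difference between the ages passed. Mmp2 changed by 1.24 in adults, with a difference of -0.24 (95% interval -0.77 to 0.30), and Atp8b5 by 1.78 (-0.32, -0.80 to 0.17). The p53 target Phlda3 changed by 2.87 in infants and 3.02 in adults (0.15, -0.85 to 1.16). The intervals for C4b (0.08, -0.14 to 0.30) and Lrp1 (-0.06, -0.27 to 0.16) were narrower.

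**Figure D5:**
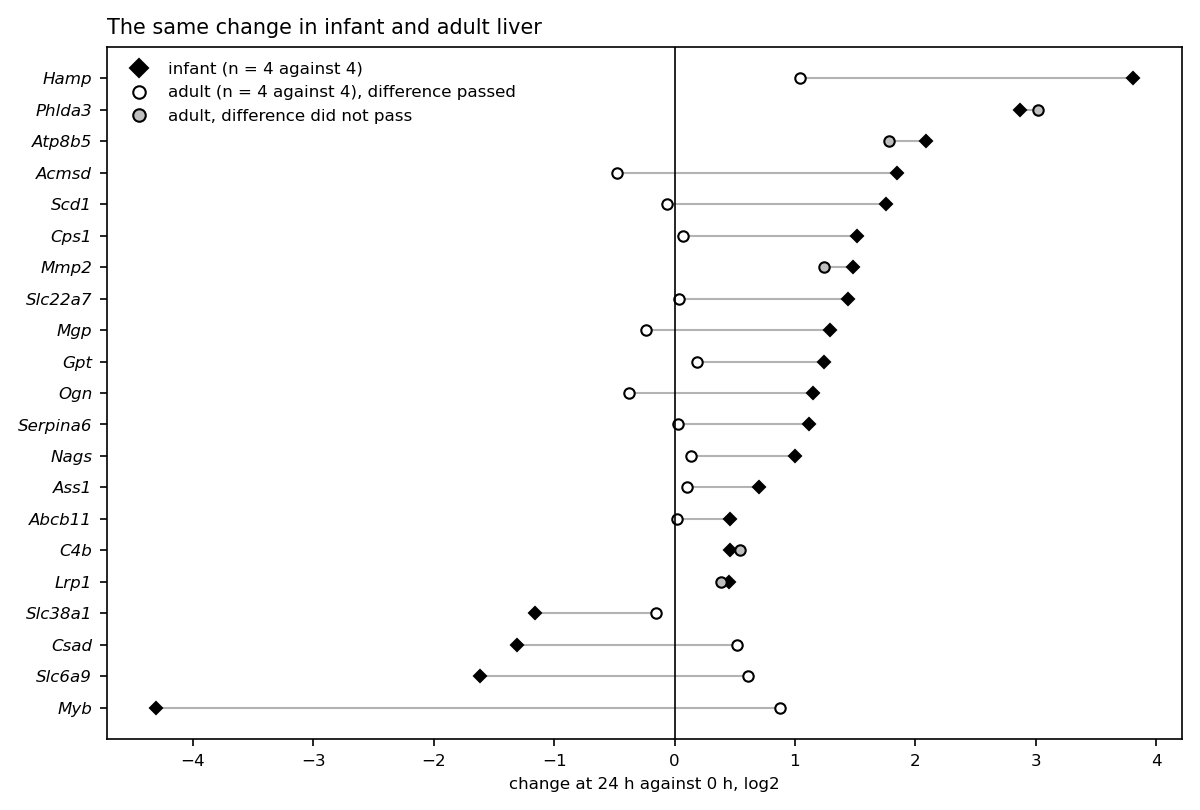
Change at 24 h against 0 h (log2) in infant liver (diamonds) and adult liver (circles), 4 against 4 arrays each, for 21 genes in order of the infant change; open circles mark genes whose change differed between the ages at an adjusted p under 0.05 and grey circles those that did not pass. Scd1, Cps1 and Slc22a7 lie near 0 in adults (-0.06, 0.07 and 0.04), while Phlda3, Atp8b5 and Mmp2 have adult values of 3.02, 1.78 and 1.24 beside their infant ones.

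No gene's change differed between infant males and females at an adjusted p under 0.05 (0% of 23115), by limma, while 2539 had an unadjusted p under 0.05. Without 0 h male1 35 genes passed, without 0 h male2 32, without either of the 0 h females 2 and without 24 h male1 3. Males alone passed 3823 genes and females alone 909. With 2 mice of each sex at each time, and the females' 0 h and 24 h arrays on different slides, sex and slide cannot be told apart in such a difference.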

How the data were processed

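RNA from 24 mouse livers was hybridised to 24 one-colour Agilent arrays on 3 slides, from 200 ng of RNA labelled with Cy3 per the labels' protocols. The deposited scanner files hold spot intensity, background-subtracted by Agilent Feature Extraction per the file headers; the submitters' processing notes name version 11.5.1. Spot marks of 0 or 1 for background and saturation come from the same deposited files. The authors' deposited value table holds log2 values whose scale and centring are not stated, and served as an alternative.

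Here log2 of the processed signal minus each array's 75th percentile was taken over 55681 probes other than controls. Of 29796 probes with RefSeq-style names, 28026 (94.1%) were given a current symbol from RefSeq (GRCm38.p6); the brightest kept probe stood for a gene. The 23115 genes tested had a probe well above background on at least 4 of the 24 arrays. limma 3.58.1 (R 4.3.3) was fitted to 12 cells of age, time and sex, with contrasts averaged over sexes and Benjamini-Hochberg adjustment over all genes; fits were tested on simulated data. A group with no array above background gave a bound on the fold. Alternatives covered background correction, scaling, filters, probes, slide, sex, pairing and each array left out. The number of arrays limits the precision.

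The comparison and the 61 gene lists were chosen with earlier results of these data known. Named genes were the 15 largest rises and 15 largest falls outside the p53 and blood lists, up to 6 passing members of each list, 20 fixed genes, and up to 6 genes each way of the age difference. All but the fixed genes were well above background on the 4 arrays of the higher group. The largest changes and the age difference genes were taken only where the 0 h and 24 h arrays did not overlap within either sex. Their lack of overlap within a sex was thus set by the choice. Genes whose probes disagreed in direction were left out, and not every gene the rule gives is described. List members that did not pass are named as examples, chosen after their values were seen. Same-numbered mice did not deviate together at 0 h and 24 h (correlations of 0.06 in males and 0.04 in females), so the numbers were not taken as pairs. Some results are not reported here.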

Additional observations from a re-analysis of the deposited data

Results flagged for a closer look

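Of 288 groups of 4 arrays looked at (0 h and 24 h for the named genes), 17 held an array farther from the other 3 than Dixon's 95% limit allows, where chance alone gives about 1 in 20. At 0 h male1 lay below the other 3 for Pygl at 6.30, Cyp2c38 at 0.41, Ephx1 at 6.05, Pros1 at 1.73 and Cyp2f2 at 4.78, and above them for Itgb4 at -1.54. At 0 h female2 lay above the others for Cidec at -1.39 and Wfdc18 at -2.26. At 24 h male1 lay below the others for Cps1 at 5.85 and above them for Oat at 4.12, Ephx1 at 7.51 and Krt19 at 1.64, and male2 above them for Acaca at 4.26. At 24 h female1 lay below the others for F7 at 4.05 and Alb at 9.37, and above them for Slc25a15 at 1.14 and Foxa2 at 4.58. The margin was small for Slc25a15 and Acaca, whose other arrays stood at 1.13 and 4.21 and were nearly equal.

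The 24 h change differed between the ages in 3346 genes by limma's test of the difference. Among the named genes the adult minus infant difference was negative for Hamp (-2.77), Acmsd (-2.33), Scd1 (-1.82), Ogn (-1.54), Mgp (-1.53), Cps1 (-1.44), Slc22a7 (-1.39), Serpina6 (-1.09), Gpt (-1.04), Nags (-0.87), Ass1 (-0.60) and Abcb11 (-0.44). It was positive for Csad (1.83), Slc6a9 (2.23), Slc38a1 (1.01) and Myb (5.19).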

How the results depend on the processing

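Against 4672 genes passing at 24 h, 1337 passed after median scaling, 2408 with slide as a fixed term, 3070 with slide as a random block, 1011 in males within slide 1, 1754 with sex left out and 909 in females alone; leaving out each array in turn gave 2757 to 4549. For the age difference (3346) the count was 744 after median scaling, 1572 with slide as a random block, 873 with sex left out and 1954 with sex as an additive term, and 2187 to 3360 with an array left out. For the sex difference (0) it was 1 after normexp correction, 1 after median scaling and 0 to 35 with an array left out. With the replicate number as a block, 2810 genes passed at 24 h and 1472 for the age difference; the numbers were not shown to pair the mice. Of the 135 named genes that passed, all kept their direction under each alternative that gave a value, and 40 also kept the threshold under each; the authors' deposited values gave 128 of them, so 7 genes (Abcg4, Btnl10, Il7r, Irf4, Mfap5, Myb and Slc22a27) were read under 23 alternatives and the others under 24. The causes of these losses were not tested. With 4 arrays a group and 2 of each sex, small changes near the threshold are the least settled, and dim probes have only a bound.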
